A study of Caenorhabditis elegans with 2 samples.

Results

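The genes described here encode proteins of the muscle attachment sites of *Caenorhabditis elegans*. They were asked for as *unc-98* itself and 9 genes whose products sit with UNC-98 in these structures: *unc-96*, *unc-97*, *unc-95*, *unc-112*, *pat-3*, *pat-4*, *pat-6*, *deb-1* and *lim-9*. They make up 10 of the 19973 protein-coding genes on the nuclear chromosomes and were listed by name, with earlier results of these data known. The measurements are ChIP-seq, the sequencing of DNA precipitated with a protein, of a tagged UNC-98 in whole starved L1 larvae. The labels give an age of 6 hours, bleaching followed by starvation, and strain OP85. This strain carries the mutation *unc-119(ed3)* and the transgene *wgIs85*, which holds *unc-98* fused to TY1, EGFP and 3xFLAG tags on clone P000007_F03 together with *unc-119(+)*. The sample description names an anti-GFP antibody, while the antibody field names unc-98. There were 2 biological replicates, which form 1 group, and no untagged or wild-type group was among the samples used here. The values come from whole animals, so they do not separate muscle from other tissue. The fusion is expressed from a transgene in 1 strain, and neither its copy number nor its insertion site is given in the labels.

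In body wall muscle of the worm, the contractile filaments are tied through the cell membrane to the basement membrane by integrin adhesions. PAT-3 is the beta integrin. UNC-112, the worm kindlin, binds its tail, and PAT-4 (integrin-linked kinase), PAT-6 (actopaxin, or parvin) and UNC-97 (PINCH) form a complex there. The adhesions carry dense bodies, which anchor thin filaments and hold the vinculin DEB-1, or M-lines, which anchor thick filaments. UNC-98 and UNC-96 join the adhesion complex to the thick filaments at M-lines, where LIM-9, a protein of the FHL family, is also found, and UNC-95 is a LIM domain protein of both structures. UNC-98 has C2H2 zinc fingers and has also been seen in muscle nuclei, which is the background for asking where it is found on DNA.

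The sequences below are the stretches that the later results turn on, from the RefSeq copy of WBcel235, the assembly that ce11 names, each 5′ to 3′ on the strand of its gene. For *unc-98* and *unc-97*, which had no candidate region at their 5′ end in any list, the 250 bases just upstream are shown. For *unc-112* and *unc-96* it is 200 bases around the highest candidate near the 5′ end, and for *deb-1* 200 bases around a called region past its 3′ end. Capitals mark E-boxes (CANNTG, the site of bHLH factors such as the myogenic factor HLH-1) and the repeat GAGAGA on either strand.
*unc-98* upstream, chrX:7573620-7573869, minus strand: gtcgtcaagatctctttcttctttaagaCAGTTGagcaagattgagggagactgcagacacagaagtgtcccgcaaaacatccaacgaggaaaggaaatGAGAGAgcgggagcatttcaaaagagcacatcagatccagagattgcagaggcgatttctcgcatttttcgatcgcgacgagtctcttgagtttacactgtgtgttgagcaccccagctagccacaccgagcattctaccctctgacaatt
*unc-97* upstream, chrX:5592883-5593132, plus strand: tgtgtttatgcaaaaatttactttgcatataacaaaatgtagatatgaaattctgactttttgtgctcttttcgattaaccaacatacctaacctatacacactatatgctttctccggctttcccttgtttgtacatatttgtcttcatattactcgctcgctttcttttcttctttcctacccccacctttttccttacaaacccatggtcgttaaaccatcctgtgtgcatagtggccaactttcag
*unc-112* candidate, chrV:14696760-14696959, minus strand: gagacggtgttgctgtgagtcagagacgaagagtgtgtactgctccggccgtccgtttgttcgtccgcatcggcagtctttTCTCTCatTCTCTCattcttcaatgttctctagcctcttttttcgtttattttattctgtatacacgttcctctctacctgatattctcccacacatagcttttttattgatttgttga
*unc-96* candidate, chrX:621866-622065, minus strand: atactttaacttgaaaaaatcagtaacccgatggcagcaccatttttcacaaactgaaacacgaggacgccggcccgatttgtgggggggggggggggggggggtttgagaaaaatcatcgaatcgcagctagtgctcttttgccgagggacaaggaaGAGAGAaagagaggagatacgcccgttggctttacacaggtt
*deb-1* downstream region, chrIV:7084872-7085071, minus strand: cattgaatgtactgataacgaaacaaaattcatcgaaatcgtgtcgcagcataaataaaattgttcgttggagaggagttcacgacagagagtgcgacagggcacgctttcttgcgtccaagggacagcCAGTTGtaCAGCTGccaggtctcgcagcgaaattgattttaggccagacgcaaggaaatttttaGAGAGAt

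None of the 10 attachment genes had a called region. A region counted for a gene when its summit, the position of highest signal in the deposited list, lay in the promoter window (1000 bp before to 500 bp after a coding transcript's 5′ end) or in an intron. The main list was the conservative one, with 728 regions at an irreproducible discovery rate (IDR) below 0.01, and it put a summit in the promoter window of 0 of 10 attachment genes, against 632 of 19973 protein-coding genes (3.16%). The second thresholded list of 790 regions also gave 0 of 10 (background 3.38%), as did the thresholded list of replicate 1 (577 regions, 2.89%) and that of replicate 2 (394 regions, 1.79%). In introns the count was 0 of 10 in each list, with backgrounds of 0.783% in the conservative list, 0.819% in the second, 0.576% in replicate 1 and 0.394% in replicate 2. Over promoter windows and introns in any of the 4 lists, 0 of 10 attachment genes and 917 protein-coding genes (4.59%) had a summit. With a share this low, 0 of 10 is near the background and does not tell the attachment genes from other genes. At the looser IDR of 0.05, the ranked list behind the conservative one still gave 0 of 10 for promoters (4.58%) and introns (1.57%). The other ranked list of the series gave 1 of 10 for each (4.70% and 1.62%), the same *lim-9* summit counted under both. With 1 group of 2 replicates, no comparison between groups of samples could be tested.

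Below the threshold, the data are the ranked lists, which hold every candidate region whatever its IDR: 103403 in replicate 1, 106737 in replicate 2 and 131481 in the series list from which the conservative regions come. Each candidate carries a deposited signal, a score whose scale is not stated and which is read here only within a list. The median signal was 12.7 in each replicate list and 19.6 in the series list, against 105 in the conservative list. Candidates lie in most promoters: 8 of 10 attachment genes had a candidate summit in the promoter window in the series list, against 92.2% of all protein-coding genes, and 8 of 10 against 92.5% in the other ranked list of the series. It was 7 of 10 in replicate 1 (86.2% of all genes), 7 of 10 in replicate 2 (88.0%) and 6 of 10 in both replicates (78.3%). These candidates are described, and none is called bound. No read counts were used, so the depth behind them is unknown.

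The gene for the precipitated protein itself, *unc-98* (WBGene00006827; X, 7570374 to 7573619, minus strand), had no candidate in its promoter window, introns or exons in any of the 4 ranked lists. All 10 attachment genes but *unc-98* had at least 1 candidate in the promoter window or gene in some list; 290 protein-coding genes (1.45%) had none. The stretch without a candidate was much longer than the gene. In the series list no summit lay between X 7540199 and X 7591498, an interval of 51299 bp. It reached 17879 bp upstream of the *unc-98* 5′ end and 33420 bp downstream of it. The interval was 51116 bp in replicate 1 (7540199 to 7591315) and 49940 bp in replicate 2 (7540071 to 7590011), so that the downstream edges nearly coincided and the upstream edge lay closer to *unc-98* in replicate 2. It had the same edges in the other ranked list of the series.

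Among 131475 intervals between neighbouring summits in the series list, that around *unc-98* was the 4th longest, against a median of 605 bp and a 99th percentile of 2747 bp. It ranked 5th of 103397 in replicate 1 and 5th of 106731 in replicate 2. It was the longest on the X chromosome, where the next was 28660 bp in the series list. Outside it, candidates returned at the usual spacing: the bins of 10 kb that lay wholly beyond its edges within 100 kb of *unc-98* held 9 to 17 candidates each in the series list, with a best signal between 22.1 and 66.8 per bin. The interval holds 11 whole protein-coding genes, which include *sto-1*, a stomatin gene, *vps-52*, a gene of vesicle tethering, and *apy-1*, a nucleoside diphosphatase gene. A 5′ end in an interval over 40000 bp was found for 1 of 10 attachment genes and 74 of all protein-coding genes (0.371%) in the series list, 78 (0.391%) in replicate 1 and 79 (0.396%) in replicate 2. The transgene carries a clone with *unc-98*, and a control entered the making of all the lists. The labels give neither the extent of the clone nor its read depth, and their part in this interval was not tested. The second gene of the transgene, *unc-119* on chromosome III, is described only, as the extent of its sequence on the transgene is not given. No conclusion on the transgene is drawn from it. Its outermost 5′ end lay in an interval of 907 bp. Its best promoter candidate in the series list had a signal of 42.0, in an intron (III, 10907023 to 10907338). The candidate overlapping it in replicate 1 had 18.2; the best promoter candidate of replicate 2, 24.5, and that of replicate 1, 36.5, lay elsewhere.

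**Figure D1:**
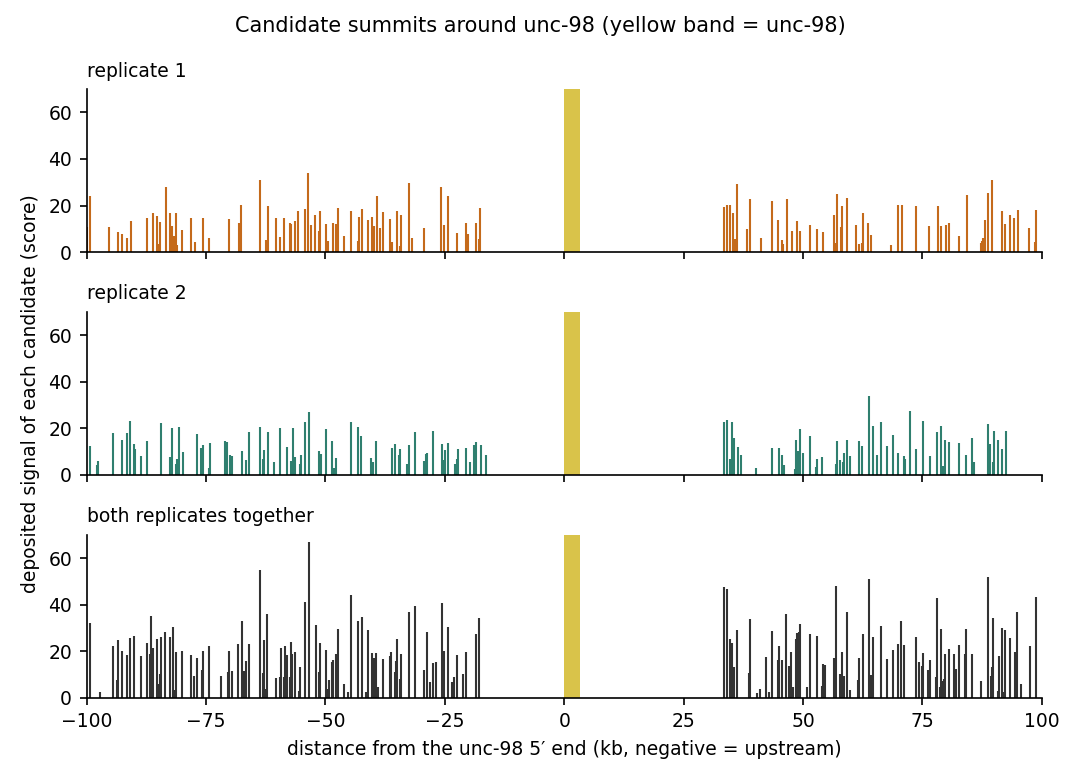
Deposited signal (score) of every candidate summit within 100 kb of the *unc-98* 5′ end, by distance in kb with negative values upstream, in replicate 1 (top), replicate 2 (middle) and the series list from both (bottom); the yellow band is *unc-98*. No candidate lies between 17879 bp upstream and 33420 bp downstream of the 5′ end in the series list, and an empty stretch of 51116 bp in replicate 1 and 49940 bp in replicate 2 appears around *unc-98*.

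The other attachment genes lay in intervals of ordinary or moderately long size. In the series list the interval at the 5′ end ranged from 201 bp at *unc-96* to 2295 bp at *unc-97*, all shorter than the 99th percentile of that list. For *unc-97* (WBGene00006826; X, 5593133 to 5594965, plus strand) it was 4393 bp in replicate 1, above that list's 99th percentile of 3888 bp, and 2232 bp in replicate 2, below its 3630 bp. The PINCH gene was the other of the 10 attachment genes with no promoter candidate in any of the 4 ranked lists, a state shared by 508 protein-coding genes (2.54%). This depended on the window, as the nearest upstream summit of the series list lay at X 5591712. With a window from 2000 bp upstream *unc-97* stood at a percentile of 16.7, and *unc-98*, still without a candidate, at 1.83. Unlike *unc-98*, *unc-97* also had candidates within the gene, 2 in the series list and 1 in replicate 2, with 0 in replicate 1.

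**Figure D2:**
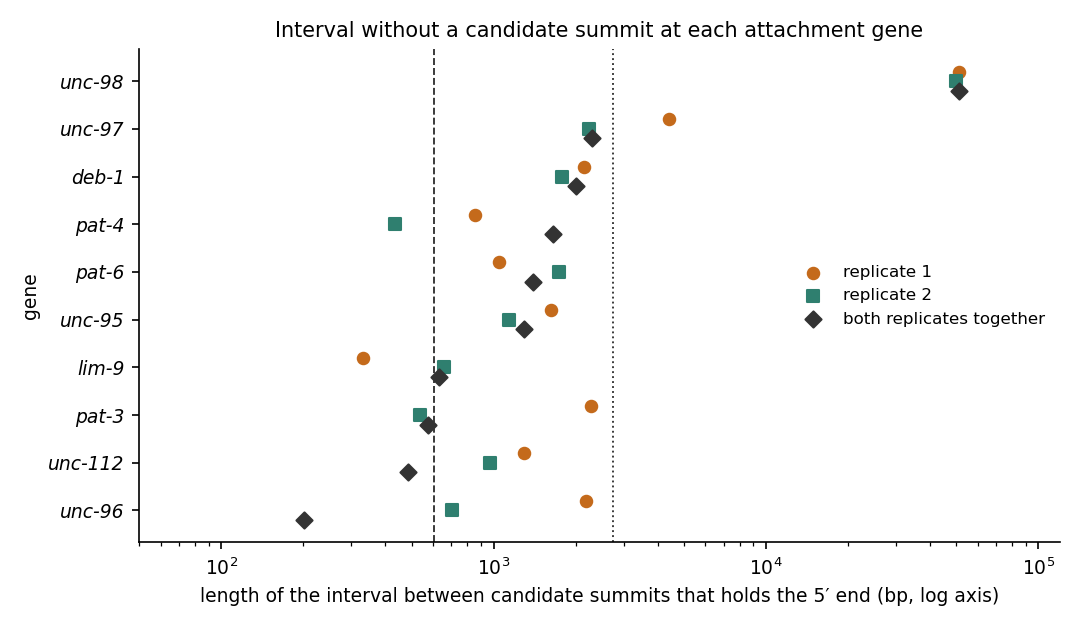
Length in bp (log axis) of the interval between neighbouring candidate summits that holds the outermost 5′ end of each attachment gene, in replicate 1 (circles), replicate 2 (squares) and the series list (diamonds). The dashed line is the median interval of the series list, 605 bp, and the dotted line its 99th percentile, 2747 bp; *unc-98* lies at 49940 to 51299 bp in all 3.

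Values given below for several lists are those of the best promoter candidate of each list, at overlapping places unless stated. Among the adhesion genes, the integrin gene *pat-3* (WBGene00003930; III, 3908931 to 3914149) had weak promoter candidates. The best had a signal of 14.8 in replicate 1, 13.4 in replicate 2 and 24.2 in the series list, where it exceeded the best candidate of 38.7% of protein-coding genes (45.7% in replicate 1 and 37.0% in replicate 2). Its replicates were close to each other and both below the all-gene medians, which were 16.9 in replicate 1, 17.1 in replicate 2 and 29.0 in the series list over genes with a candidate.

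The kindlin gene *unc-112* (WBGene00006836; V, 14691855 to 14696654) had the highest promoter candidate of the 8 attachment genes with a single annotated 5′ end. Its summit lay at V 14696859, 205 bp upstream, inside the stretch printed for it above, and its signal was 20.4 in replicate 1, 31.7 in replicate 2 and 53.2 in the series list. That was above the best promoter candidate of 93.7% of protein-coding genes in the series list, 94.6% in replicate 2 and 72.8% in replicate 1. Its replicate summits were 10 bp apart (14696861 in replicate 1 and 14696851 in replicate 2). Its IDR was 0.204 in the series list, 0.846 in replicate 1 and 0.926 in replicate 2, so it lay far from the 0.01 of the called regions in all of them.

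The genes of the PINCH complex had low candidates or none in the series list. *pat-4* (III, 89453 to 94809), the gene for integrin-linked kinase, had a best promoter signal of 9.31 in replicate 1, 19.4 in replicate 2 and 25.3 in the series list. It was above 22.8% of genes in replicate 1, 66.8% in replicate 2 and 42.0% in the series list, so the replicates lay on either side of the middle of all genes. *pat-6* (IV, 261886 to 264232), the actopaxin gene, had 10.5 in replicate 1, no candidate summit in the window in replicate 2 and 9.80 in the series list, above 10.9% of genes there and 26.4% in replicate 1. A candidate of replicate 2 overlapped the series one, with 8.10, but its summit (IV 263621) lay outside the promoter window. With *unc-97* at no candidate, each of these 3 genes was below the all-gene median in the series list.

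Of the M-line genes, *unc-96* (X, 611120 to 621290), whose product binds UNC-98, had its best promoter candidate 675 bp upstream of the 5′ end, in the second stretch of candidate sequence printed above. The signal was 11.4 in replicate 1, 20.9 in replicate 2 and 37.1 in the series list, with an IDR of 0.763 there. It was above 30.05% of genes in replicate 1, 73.4% in replicate 2 and 75.8% in the series list, so its place above the middle of all genes was not seen in replicate 1. Its introns held a higher one at X 611779 to 612094, with 32.3 in replicate 1, 16.4 in replicate 2 and 48.2 in the series list. Of this pair, the promoter candidate was the higher in replicate 2 and the intronic one in replicate 1. The best intron candidate of replicate 2 lay elsewhere, with its summit at X 613678 and a signal of 22.6. The best intron candidate of *unc-96* was thus above its best promoter candidate in each of these lists. *unc-95* (I, 14381360 to 14384737) had no promoter candidate in replicate 1, one of 6.42 in replicate 2 and one of 8.63 in the series list, above 10.2% of genes there and 15.1% in replicate 2; the candidate of replicate 2 that overlapped the series one had 4.93.

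The LIM domain gene *lim-9* (WBGene00006407; I, 9181810 to 9220728, minus strand) held the highest candidate of the 10 genes in the series list and in replicate 1; in replicate 2 the best of *unc-112*, 31.7, was slightly above the best of *lim-9*, 31.6. It lay at I 9199861 to 9200176 with its summit at 9200019, in an intron 20709 bp inside the gene from the outermost 5′ end, and within the promoter window only because an internal 5′ end is annotated 708 bp away. The signal was 44.9 in replicate 1, 24.0 in replicate 2 and 64.3 in the series list, above 96.8% of genes in replicate 1, 83.3% in replicate 2 and 96.1% in the series list. It came nearest to the threshold of all the attachment genes' promoter candidates, with an IDR of 0.0524 in the series list and 0.0305 in the other ranked list, against 0.132 in replicate 1 and 0.864 in replicate 2. In replicate 2 the highest *lim-9* candidate was another one, at a summit of 9195481, with 31.6 there, 17.9 in replicate 1 and 44.4 in the series list. Length bears on this gene: *lim-9* has 8 annotated 5′ ends and 12008 bp of promoter window, against a median of 1501 bp over all genes. Its 18 promoter candidates in the series list come to 1.50 per kb of window, against a median of 1.33 per kb over all genes. With the outermost 5′ end alone, its best candidate exceeded that of 46.3% of genes.

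**Figure D3:**
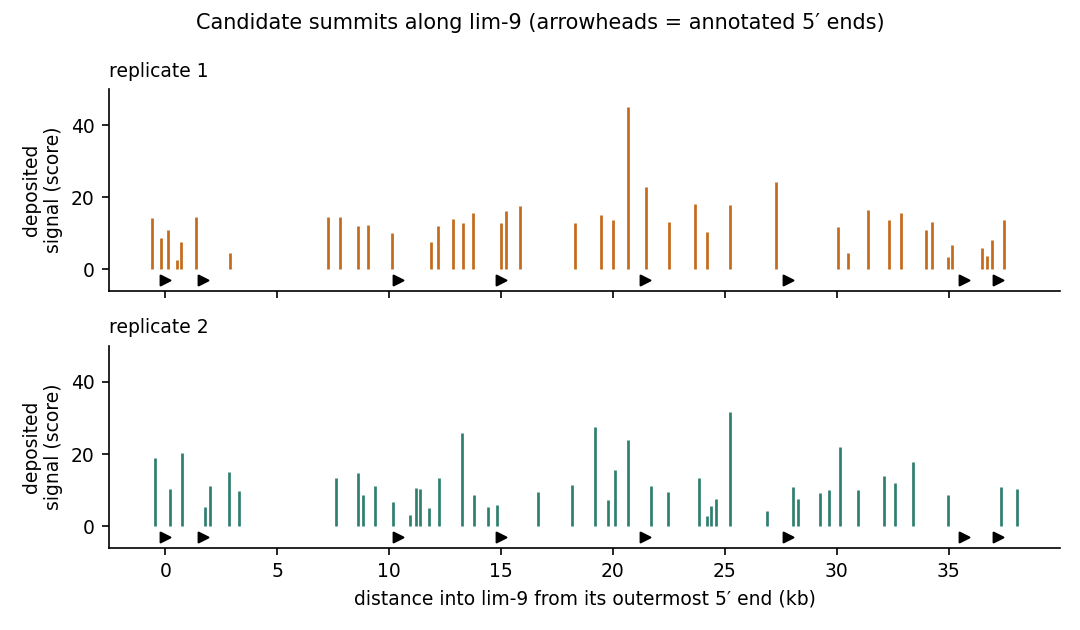
Deposited signal (score) of the candidate summits in the promoter windows and introns of *lim-9*, by distance in kb from its outermost 5′ end, in replicate 1 (top) and replicate 2 (bottom); arrowheads mark the 8 annotated 5′ ends. The highest summit stands 20.7 kb into the gene in replicate 1, at 44.9, and at another place in replicate 2, at 31.6.

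The dense body gene *deb-1* (WBGene00000942; IV, 7085215 to 7094266) encodes vinculin, which binds actin at the dense body. Its best promoter candidate in the series list had a signal of 31.6, above 62.0% of genes, with 18.2 at the same place in replicate 1, above 63.1%, and 10.2 in replicate 2. The best promoter candidate of replicate 2, 20.2, lay elsewhere in the 4130 bp of windows around its 4 annotated 5′ ends.

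Ordered by their best promoter candidate in the series list, the genes ran *lim-9*, *unc-112*, *unc-96*, *deb-1*, *pat-4*, *pat-3*, *pat-6*, *unc-95*, with *unc-97* and *unc-98* at none. Of the 7 neighbouring pairs among the 8 genes with a candidate, 3 kept their order in each replicate list and 4 changed it in 1 of them. The pairs that kept it were *unc-112* over *unc-96*, *deb-1* over *pat-4* and *pat-3* over *pat-6*. The order of *lim-9* and *unc-112* turned round in replicate 2 (24.0 for *lim-9* and 31.7 for *unc-112*), that of *unc-96* and *deb-1* in replicate 1 (11.4 for *unc-96* and 18.2 for *deb-1*), and that of *pat-4* and *pat-3* in replicate 1 (9.31 for *pat-4* and 14.8 for *pat-3*). Neither *pat-6* nor *unc-95* had a promoter candidate in both. The median percentile among all protein-coding genes, those without a candidate ranked lowest, was 40.4 for the 10 attachment genes in the series list, 28.2 in replicate 1 and 51.9 in replicate 2, where the middle of all genes is 50.

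**Figure D4:**
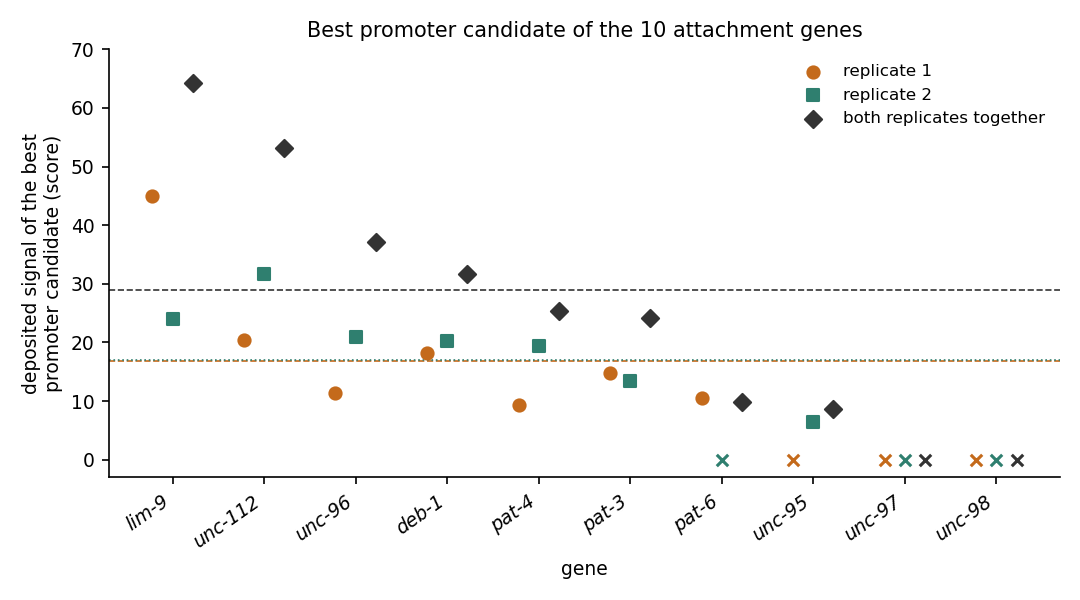
Deposited signal (score) of the best candidate summit in the promoter window of each attachment gene in replicate 1 (circles), replicate 2 (squares) and the series list (diamonds), in the order of the series list; crosses at 0 mark genes with no candidate. Dashed and dotted lines are the medians over all protein-coding genes with a candidate, 29.0 in the series list and 16.9 and 17.1 in replicates 1 and 2, which nearly coincide; *lim-9*, *unc-112* and *deb-1* lie above them in all 3 lists.

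Intron candidates were found in the same 8 of 10 attachment genes that had a promoter candidate. That is 8 of 10 against 64.1% of genes with introns in the series list and 63.9% in the other ranked list. It was also 8 of 10 in replicate 1 (57.9%), in replicate 2 (58.7%) and in both (45.9%). The introns of the attachment genes are longer, with a median of 2343 bp against 741 bp over all genes. The best intron signal had a median of 27.3 over these 8 genes and 28.2 over all 12356 genes with an intron candidate. Apart from *lim-9* at 64.3 and *unc-96* at 48.2, the series values fell between 21.7 at *pat-6* and 31.7 at *pat-4*, with *unc-95* at 23.9, *pat-3* at 25.9, *unc-112* at 26.2 and *deb-1* at 28.4. Candidates per kb of intron had a median of 1.21 over the 10 attachment genes and 1.09 over all genes with introns in the series list. The medians were 1.07 against 0.739 in replicate 1 and 1.28 against 0.779 in replicate 2.

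Called regions lay near 2 of the attachment genes, each in the promoter of a neighbour. A conservative summit lay within 10000 bp of 1 of 10 attachment genes, against 14.9% of all genes. It is the region at V 14685677 to 14685839, 6080 bp past the 3′ end of *unc-112*, with a signal of 363.5 in the series list, 197 in replicate 1 and 172 in replicate 2. It lies in an intron and promoter window of *hsp-90*, a chaperone gene, and in the promoter window of C47E8.4. With any of the 4 thresholded lists it was 2 of 10, against 18.5%. The additional gene was *deb-1*, with a region at IV 7084813 to 7085128 whose summit lay 244 bp past its 3′ end, within the stretch printed above and in the promoter window of *rps-4*, a ribosomal protein gene. This region rested on replicate 1, where its signal was 85.1 with an IDR of 0.000109. The ranked list of replicate 2 had no overlapping candidate at all, nor did the series list from which the conservative regions come. The second thresholded list held it with a signal of 83.1 and an IDR of 0.00199. Over all 10 attachment genes the median distance to the nearest conservative summit was 73935 bp, against 55893 bp over all genes, and for *unc-98* it was 224940 bp.

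The letters of the upstream stretches and of those around promoter candidates were counted for all genes; the printed *deb-1* downstream region, which holds CAGCTG, is in neither count. In the 250 bases upstream of the outermost 5′ end, an E-box was found for 4 of 10 attachment genes (*unc-98*, *pat-3*, *deb-1*, *lim-9*), against 59.4% of all protein-coding genes. The form CAGCTG, which is 1 kind of E-box, was found for 0 of 10 against 4.29%, GATAAG for 1 of 10 (*pat-6*) against 14.7%, GAGAGA for 2 of 10 (*unc-98*, *unc-112*) against 19.1%, and TATAAA for 2 of 10 (*unc-96*, *pat-3*) against 35.2%, each on both strands. In the 200 bases around the best promoter candidate, GAGAGA was found in 3 of 8 attachment genes (*unc-96*, *unc-112*, *lim-9*), against 11.9% of 18414 genes, and an E-box in 4 of 8 against 56.6%. CAGCTG and GATAAG were in 0 of 8, against 4.52% and 7.52%, and TATAAA in 2 of 8 (*pat-3*, *deb-1*) against 19.3%. GC content of the upstream 250 bases was highest in *unc-98*, at 47.6%, with a median of 34.6% over the 10 attachment genes and 33.2% over all genes. Around the candidates it was 51.0% at *unc-96*, 43.0% at *unc-112* and 48.0% at *lim-9*, the 3 genes with the highest candidates. The median over all genes was 37.0%. GC content was also above that median at *pat-6*, with 41.5% and a signal of only 9.80, at *pat-4*, with 38.5%, and at *pat-3*. By contrast, *deb-1*, the next in signal, and *unc-95*, the lowest in signal, were below it. The part of base composition in these signals was not tested.

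A list of 30 other genes of the attachment sites and of UNC-98 and UNC-96 partners was chosen with earlier results of these data known. It is called the 30 other attachment genes for short, though it also holds genes of the filaments themselves, such as *unc-54* and *unc-15*. Of its genes, 4 of 30 had a conservative promoter summit, against 3.16% of all protein-coding genes. These were *unc-54*, the major myosin heavy chain gene, with a signal of 98.1 (I, 14863487 to 14863802), *unc-23*, a BAG chaperone regulator gene, with 94.1 (V, 8936205 to 8936520), *unc-22*, the twitchin gene, with 93.2 (IV, 12010435 to 12010750), and *unc-82*, a kinase gene, with 60.9 (IV, 7429011 to 7429326). The first 3 also held the highest promoter candidates of the 30. The second thresholded list kept *unc-22* and *unc-54*, 2 of 30 against 3.38% of all genes, and added an intron region of *unc-15*, the paramyosin gene, at 59.5. With *unc-22*, 2 of 30 thus had an intron summit in that list, against 0.819% of genes with introns. The conservative list also gave 2 of 30 for introns, against 0.783%. These were the *unc-22* and *unc-82* regions already counted as promoter summits, so the same regions are counted under both. The *unc-82* region is in a promoter window only because of an internal 5′ end. For promoter summits, replicate 1 alone had 1 of 30, *unc-22*, against 2.89%, and replicate 2 had 0 of 30 against 1.79%. The median percentile of the best promoter candidate over the 30 was 84.1 in the series list, 79.9 in replicate 1 and 58.8 in replicate 2. Their promoter windows are longer, with a median of 3002 bp against 1501 bp for the 10 attachment genes and for all genes. Their best candidate was thus taken over more sequence, and the part of window length in these percentiles was not tested.

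**Figure D5:**
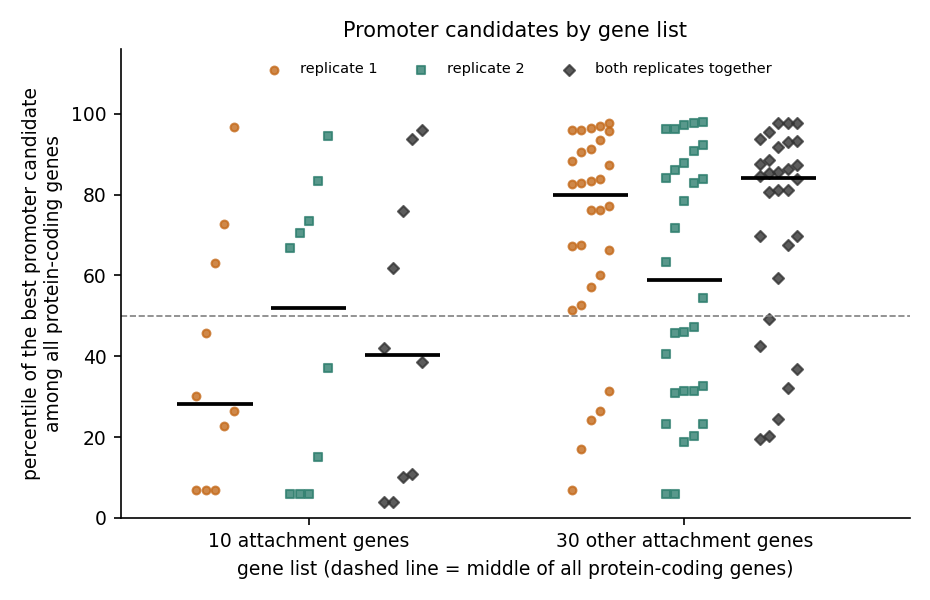
Percentile of the best promoter candidate of each gene among all protein-coding genes, for the 10 attachment genes (left) and the 30 other attachment genes (right), in replicate 1 (circles), replicate 2 (squares) and the series list (diamonds); bars are medians and the dashed line is the middle of all genes. The 10 attachment genes spread from 3.90 to 96.1 in the series list around a median of 40.4, and the 30 others have a median of 84.1.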

How the data were processed

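ChIP-seq of tagged UNC-98 was deposited as 8 lists of regions, a ranked and a thresholded list for each of 2 replicates and 2 pairs for both together. Per the labels, chromatin was sonicated to 200 to 800 bp and the assembly is ce11. No label or file used here names the aligner or peak caller. The deposited signal is a score of unstated scale, and the ranked lists carry −log10 values of a global IDR as deposited, with a ceiling of 5. Called means present in a thresholded list, where every IDR is below 0.01. The ranked series list held 794 regions below 0.01, against 728 in the conservative list, so some such regions were not called. The other ranked lists likewise held more than their thresholded lists. Counts at the looser IDR come from the ranked lists and can take in such regions. The 16 columns of values per replicate in the lists of the series name no sample and were not used.

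Genes were those of Ensembl release 115 (6 nuclear chromosomes). All 25 coding transcripts of the 10 genes began with a start codon in the sequence used. Region assignment was tested on simulated data. Python 3.11.15, numpy 2.4.6, pandas 2.3.3 and matplotlib 3.10.9 were used. With 1 group no test was run; lists are described by counts and medians beside all protein-coding genes, and replicates share no other group to pair with. Without read counts, depth is unknown and gives no interval.

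The 10 genes, the 30 others and the sequences searched were chosen with earlier results of these data known. Named beside the 10 are those of the 30 with a called region or among their 3 highest promoter candidates, *unc-119*, genes whose promoter windows share a described candidate, and genes nearest a called region within 10000 bp; *sto-1*, *vps-52*, *apy-1*, C47E8.4 and *rps-4* were named after their positions were seen. Alternatives covered the list, each replicate left out, IDR, promoter windows, 5′ ends, overlap and ranking; the intervals between summits and an IDR of 0.05 were added after the data were seen.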

Additional observations from a re-analysis of the deposited data

How the results depend on the processing

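The count of attachment genes with a called promoter or intron region stayed at 0 of 10 under every alternative run except an IDR of 0.05 in the other ranked list of the series, which gave 1 with a promoter region and 1 with an intron region, both *lim-9* at the same summit (background 4.70% for promoters and 1.62% for introns). Of the 30 other genes listed, 4 had a conservative promoter region (3.16% of all genes), against 2 in the second thresholded list (3.38%). It was 1 in the thresholded list of replicate 1 (2.89%) and 0 in that of replicate 2 (1.79%). An IDR of 0.001 gave 0, and a window of 500 bp upstream and 200 bp downstream gave 2. The count was 3 with the outermost 5′ end only, and 4 with 2000 bp upstream or with any overlap of 1 bp. A promoter candidate in both replicates was found for 6 of 10 attachment genes (78.3% of all genes). It was 4 of 10 with 500 bp upstream and 200 bp downstream, 9 of 10 with 2000 bp upstream and 6 of 10 with the outermost 5′ end only. For the settings of IDR, window, 5′ end and overlap the share of all genes was not counted, so these counts have no background beside them. The cause of the changes was not tested. The median percentile of the 10 attachment genes in the series list, 40.4, was 47.9 when genes without a candidate were left out. It was 43.5 with 500 bp upstream and 200 bp downstream, 44.1 with the outermost 5′ end only, 43.6 with summed signal and 50.8 with 2000 bp upstream. The interval around *unc-98* was 49940 to 51116 bp with a replicate left out and 50983 bp between the edges of the flanking regions. Over the best promoter candidates of the 8 genes that had one, 42 of 56 alternatives moved a percentile by less than the standard deviation of the gene's 2 replicate values. The other 14 moved it by more. The alternatives include those replicate values themselves, so the count is not an independent measure of stability. Where the replicates lay far apart, as for *pat-4* (22.8 and 66.8), large shifts were still counted as less. With summed signal *deb-1* stood at 95.5 and *pat-3* at 63.9, and with 2000 bp upstream *pat-4* stood at 83.0 and *unc-95* at 42.8. No paired analysis was possible because the replicates form 1 group. Depth is unknown, so a weak region could not be told from one that was not detectable.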

Other observations

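The other intervals over 40000 bp without a candidate summit all lay on chromosome V, 4 of the 5 in each ranked list. In the series list 3 of them adjoined each other, at V 2346549 to 2420094, 2420094 to 2486793 and 2486793 to 2564370, and were interrupted by single summits, which lay at 2420087 and 2486831 in replicate 1 and at 2420094 and 2486886 in replicate 2. They held 14, 14 and 17 whole protein-coding genes and none of the attachment genes. The remaining one ran from V 8813059 to 8862785 in the series list (49726 bp) and was longer in replicate 1 (69589 bp) and replicate 2 (69006 bp), while that around *unc-98* differed by 1176 bp between the replicates.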
